A study of Mus musculus with 16 samples.

Results

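The collagen genes were taken as all genes whose GENCODE symbol has the form of a collagen chain, "Col", a type number, "a" and a chain number, and that had at least 10 counts over the 16 tumors. Of 44 such genes, all of them in the files, 42 were kept, among 22298 genes in all. They were divided into 11 fibrillar collagens, 8 basement membrane collagens and 23 other collagens. Col19a1 (4 counts) and Col9a1 (2 counts) were below the minimum. The tumors grew in the abdomen of 6-week-old mice of the 615 line, labelled wild type, after 500000 MFC cells, which come from a mouse forestomach carcinoma, had been injected there. Mice of the vehicle group (8 tumors) were given PBS, and those of the IL-33 treatment group (8 tumors) 20 μg/kg of IL-33, both into the abdominal cavity every 2 days. The libraries were made from poly(A) RNA of whole tumor tissue, so each held RNA of the cancer cells and of the host cells in the tumor. Mice of either sex were used, matched for sex, and the sex behind these tumors is not given in the sources used here. The methods give 4 or 5 mice per group for this model, fewer than the 8 tumors per group, and no source ties tumors to mice, so tumors may share a mouse and p-values measure only the spread between these tumors, which may be technical.

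Collagens are trimers of chains that wind around each other into a triple helix. The fibrillar types, above all types I and III, form the banded fibers of connective tissue, type IV forms the sheet of basement membranes under epithelium and around vessels and muscle, and type VI forms beaded filaments close to cells. In tumors the fibrillar types are made mainly by fibroblasts, while endothelial cells, pericytes and some cancer cells add basement membrane collagens. In bulk tissue, fewer cells of a type and less RNA per cell cannot be told apart.

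No collagen gene differed between the vehicle and IL-33 treatment groups after adjustment, while single tumors differed widely. The highest collagen levels were in IL-33 replicate 7, which was the highest tumor for 36 of the 42 genes (over all genes tested, 43.0%). Vehicle replicates 3 and 7 and IL-33 replicate 3 were also high in the chains of types I, III and V. No collagen gene passed an adjusted p of 0.05 in edgeR's quasi-likelihood test (smallest adjusted p = 0.418, and 0.964 without IL-33 replicate 7), and no other gene did (0.0% of 16817 genes). DESeq2 without IL-33 replicate 7 had no collagen gene and 0.00633% of all genes below that value, in the lower direction. The log2 fold change was above 0 for 31 of the 42 genes with all tumors and for 6 of 39 when IL-33 replicate 7 was left out. Its median was 0.69 and −0.42 over the collagen genes and 0.06 and −0.01 over all genes tested. The share of all genes above 0 is not given here. Collagen genes share their high tumors and are not independent: of the other 15 tumors, vehicle replicate 3 was the highest for 12 of the 39 (all genes, 6.56%).

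Before the groups are compared, the tumors that stand apart need to be described. The total count of a vehicle tumor was 14139268 to 24290794, and that of an IL-33 tumor 16569613 to 24288893. The scaling factor (TMM, by which edgeR evens out the composition of libraries) was lowest in vehicle replicate 4 (0.64) and highest in IL-33 replicate 7 (1.24), with 0.895 to 1.10 for the remaining libraries. Markers of other tissues stood out in IL-33 replicate 7. Its counts scaled to a total of 1000000 (CPM) summed to 1256 for 10 genes of uterus and oviduct, against 4.04 or less elsewhere, and to 993 for 9 genes of the ovary, against 55.0 or less. Its 6 adipose tissue markers summed to 2360.5 CPM, against at most 245 CPM elsewhere. The 6 skeletal muscle markers were high in other tumors, at 653 CPM in vehicle replicate 7, 1059 CPM in vehicle replicate 8 and 617 CPM in IL-33 replicate 1, against 0.878 to 142 CPM in the rest. Its 10 smooth muscle and pericyte markers summed to 6735 CPM (135 to 529 CPM in the vehicle group, 74.5 to 348 CPM in the other IL-33 tumors), its 9 fibroblast markers to 2805 CPM (416 to 787 and 421 to 762 CPM) and its 9 endothelium markers to 1095 CPM (111 to 296 and 117 to 240 CPM). Class medians and most named collagens are therefore given with and without IL-33 replicate 7. Some single genes are given with all tumors only, Col16a1, Col18a1 and Pcolce among them. The part of these tissues in the collagen levels of IL-33 replicate 7 was not tested. Vehicle replicate 4 also stood apart. Its 6 leukocyte markers summed to 88.3 CPM, against 212 to 985 CPM in the other tumors. The highest ovary (55.0 CPM) and adipose tissue (245 CPM) sums outside IL-33 replicate 7 were in vehicle replicate 4. The 8 epithelium markers summed to 930 CPM in IL-33 replicate 7, below vehicle replicate 4 (1547 CPM) and IL-33 replicate 6 (1366 CPM). Of these genes, Krt8 was at 181 to 975 CPM in the 16 tumors. Epcam was at 98.8 CPM in IL-33 replicate 7 and at most 2.40 CPM in the others.

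Upstream sequences are shown for the most abundant collagen gene and for neighboring genes that were high together in IL-33 replicate 7. RefSeq (GRCm38.p6) holds a promoter entry, 250 bases before a gene's start, for 33 of the 42 genes. The stretches below are the bases of these entries that lie outside annotated exons, 5′ to 3′ on the gene's strand, and capitals mark matches to TATAA or its complement TTATA or to CCAAT or its complement ATTGG. In Col3a1 TATAA and TTATA overlap, and the stretches of Col4a4, Col6a5 and Col6a6 hold no match. Col3a1 (chr1:45311288-45311537, plus strand) encodes the chain of type III collagen. The 71 bases of Col4a4 (chr1:82586850-82586920, minus strand) are the whole interval between the starts of Col4a4 and Col4a3, which run in opposite directions. Col4a6 (chrX:141474077-141474326, minus strand) encodes a further chain of type IV collagen. Col6a5 (chr9:105960644-105960893) and Col6a6 (chr9:105828161-105828335, both minus strand) encode long chains of type VI collagen and lie side by side.
Col3a1: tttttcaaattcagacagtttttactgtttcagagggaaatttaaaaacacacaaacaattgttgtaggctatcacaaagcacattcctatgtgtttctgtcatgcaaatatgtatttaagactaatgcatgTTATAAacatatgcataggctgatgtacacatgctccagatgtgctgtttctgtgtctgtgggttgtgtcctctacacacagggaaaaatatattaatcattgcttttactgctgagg
Col4a4: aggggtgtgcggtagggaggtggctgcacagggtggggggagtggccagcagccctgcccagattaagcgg
Col4a6: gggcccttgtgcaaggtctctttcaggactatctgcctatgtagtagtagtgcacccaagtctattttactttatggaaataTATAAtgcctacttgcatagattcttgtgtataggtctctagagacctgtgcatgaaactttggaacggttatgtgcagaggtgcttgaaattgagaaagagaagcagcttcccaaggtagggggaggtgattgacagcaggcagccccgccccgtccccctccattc
Col6a5: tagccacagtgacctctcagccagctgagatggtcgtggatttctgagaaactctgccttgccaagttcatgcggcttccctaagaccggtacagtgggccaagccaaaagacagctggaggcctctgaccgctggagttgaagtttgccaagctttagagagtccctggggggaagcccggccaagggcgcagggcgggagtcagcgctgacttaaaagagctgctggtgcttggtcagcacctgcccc
Col6a6: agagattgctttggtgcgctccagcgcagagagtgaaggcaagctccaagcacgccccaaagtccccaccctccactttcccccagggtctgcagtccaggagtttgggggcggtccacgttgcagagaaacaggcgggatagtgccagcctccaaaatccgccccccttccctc

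CCAAT or its complement was in 12 of the 33 collagen promoter entries (36.4%) and in 33.8% of all 32851 entries. TATAA or its complement, searched on both strands in the same windows, was in 6 of the 33 (18.2%) and in 22.8% of all entries. These shares are descriptions of the letters in the windows.

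The levels of the collagen genes spanned several orders of magnitude. Per length of exon, Col3a1 had the highest mean level (122 RPKM, CPM per kilobase of exon, mean of 16 tumors), followed by Col1a1 (99.9 RPKM), Col6a1 (77.5 RPKM), Col4a1 (74.7 RPKM) and Col4a2 (58.9 RPKM). Which gene led differed between tumors. Col4a1, a chain of the basement membrane network, had the highest RPKM of all collagen genes in 6 tumors, Col3a1 in 5, Col6a1 in 3, and Col1a1 and Col18a1 in 1 tumor each. Of the 42 genes, 19 had a mean of at least 10 CPM. Among the 15 tumors other than IL-33 replicate 7, the SD of log2(CPM + 0.5) had a median of 0.84 over these 19 genes, and of 0.40 over all 9580 genes at that level that were tested without that tumor.

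**Figure D1:**
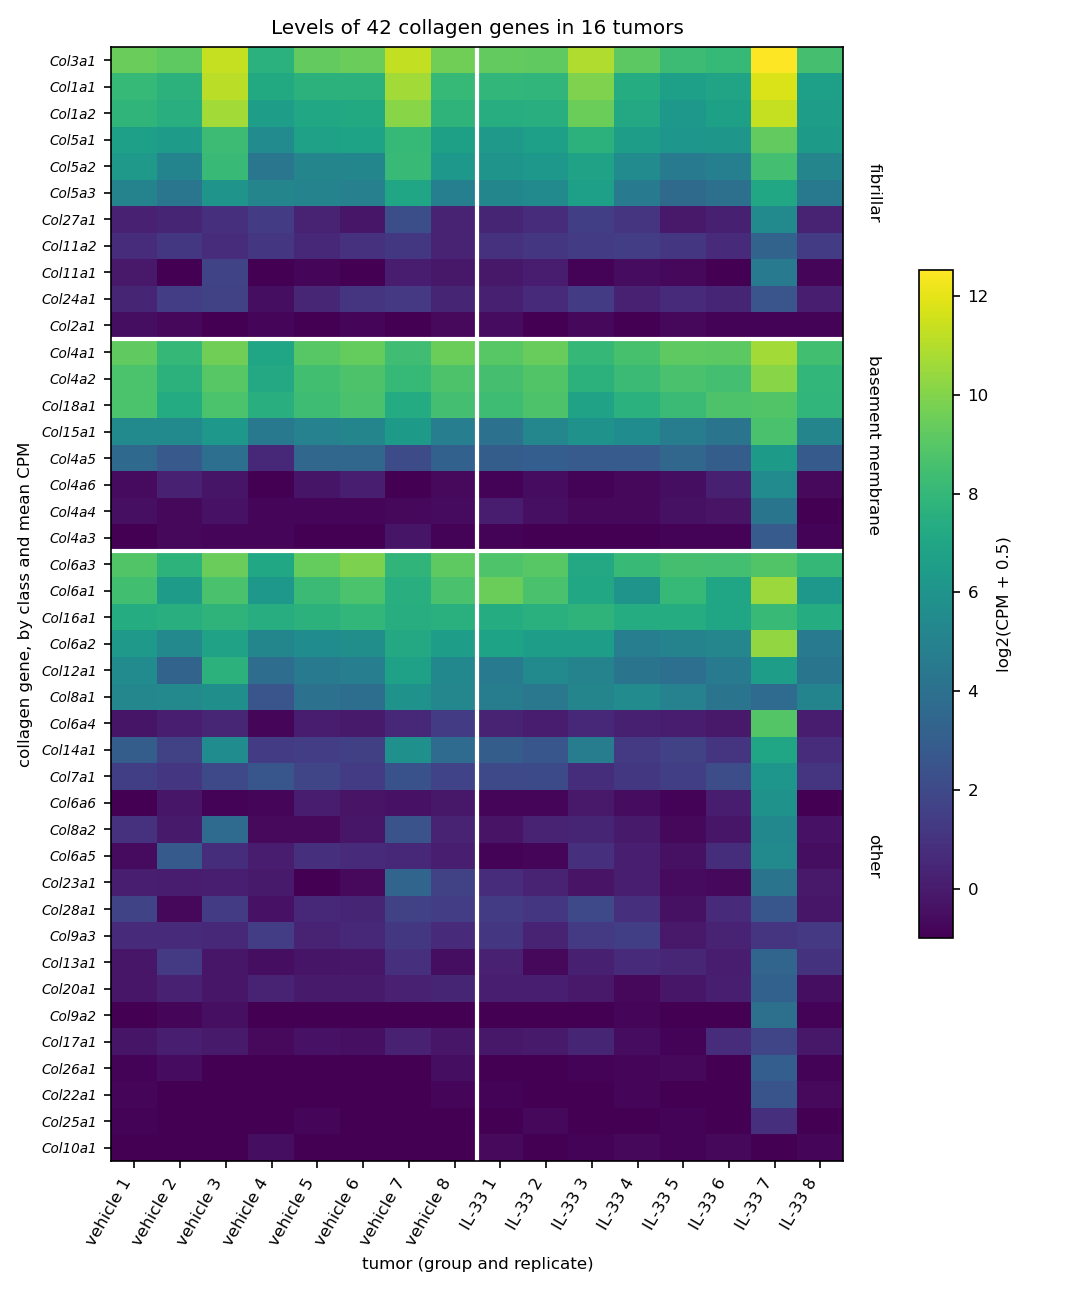
Levels of the 42 collagen genes (rows, by class and mean CPM) in the 16 tumors (columns), as log2(CPM + 0.5) on a color scale. IL-33 replicate 7 is the highest tumor for 36 of the 42 genes, and the top fibrillar genes are also high in vehicle replicates 3 and 7 and IL-33 replicate 3.

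For 6 of the 11 fibrillar collagens (Col1a1, Col1a2, Col3a1, Col5a1, Col5a2 and Col5a3) the 4 highest tumors were IL-33 replicate 7, vehicle replicates 3 and 7 and IL-33 replicate 3. The share of all genes with these 4 highest tumors was not computed. IL-33 replicate 7 alone was the highest tumor for 43.0% of all genes tested. Col1a1 (ENSMUSG00000001506, chromosome 11 from 94936224 to 94953042) encodes the α1 chain of type I collagen, the main collagen of scar and stroma. In the vehicle group its level was 150 CPM at the lowest, 236 CPM at the median and 2214 CPM at the highest. In the IL-33 treatment group it was 98.0 CPM at the lowest, 202 CPM at the median and 3429 CPM at the highest. The groups overlapped almost fully, and 4 tumors stood above the rest: IL-33 replicate 7 (3429 CPM), vehicle replicates 3 (2214 CPM) and 7 (1609 CPM) and IL-33 replicate 3 (962 CPM), with the other tumors between 98.0 and 269.7 CPM. The log2 fold change of Col1a1, IL-33 against vehicle, was −0.11 (standard error 0.79, unadjusted p = 0.887 from edgeR). It was −1.21 without IL-33 replicate 7 (standard error 0.68, unadjusted p = 0.0936), −0.59 when vehicle replicate 3 was left out too (unadjusted p = 0.344), and 0.52 when vehicle replicate 3 alone was left out.

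Col3a1 (ENSMUSG00000026043, chromosome 1 from 45311538 to 45349706), whose product lies in the same fibers as type I collagen, had a low, median and high value of 199, 694 and 2604 CPM in the vehicle group and of 263, 579 and 5917 CPM among the IL-33 tumors. The same 4 tumors were the highest, vehicle replicate 4 was the lowest, and the groups overlapped. Its log2 fold change was 0.14 (standard error 0.62, unadjusted p = 0.830) with all tumors and −0.70 (standard error 0.49, unadjusted p = 0.175) without IL-33 replicate 7, both from edgeR. Col1a2, the α2 chain of type I collagen, ranged from 91.7 to 1631 CPM and from 72.9 to 2638 CPM, with a log2 fold change of −0.04 and of −1.14 without IL-33 replicate 7.

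Type V collagen sits inside type I fibers and limits their width. Its α1 chain gene, Col5a1, was at 45.1, 105 and 310 CPM (lowest, median and highest) in the vehicle group and at 69.7, 86.4 and 617 CPM in the IL-33 treatment group. Col5a2 was at 19.2, 54.3 and 287 CPM and at 24.1, 55.3 and 358 CPM, and Col5a3 was at 19.5, 32.7 and 123 CPM and at 12.3, 29.2 and 140 CPM. For these 3 genes too IL-33 replicate 7 was the highest tumor and the groups overlapped. Their log2 fold changes lay between −0.32 (Col5a2) and 0.07 (Col5a1) with all tumors and between −0.94 (Col5a2) and −0.41 (Col5a3) without IL-33 replicate 7.

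The other fibrillar collagens are known from cartilage (Col2a1, Col11a1, Col11a2) or are minor types (Col24a1, Col27a1), and they were low here. Col27a1 was at 0.370 to 4.29 CPM in the vehicle group and at 0.439 to 2.35 CPM in the IL-33 tumors apart from replicate 7, where it was at 44.7 CPM. Col11a1 was at most 2.96 CPM outside that tumor and at 24.6 CPM in it. Col11a2 was the 1 collagen gene with an exact permutation p under 0.05, against 2.71% of all genes tested: it was at 0.782, 1.28 and 1.78 CPM (lowest, median and highest) in the vehicle group and at 1.08, 1.86 and 9.52 CPM among the IL-33 tumors (exact permutation test, two-sided, on log2(CPM + 0.5), p = 0.0375, adjusted p = 1.0 over all genes tested). The permutation p of Col11a2 without IL-33 replicate 7 was 0.0785, and no collagen gene was under 0.05 (all genes tested, 2.78%). The level of Col11a2 overlapped between the groups in both cases.

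Over the 11 fibrillar genes, the number with an unadjusted p under 0.05 in edgeR was 0 in either direction (over all genes tested, 9.99% were higher and 1.17% lower). The median log2 fold change of the class was 0.07 with all tumors and −0.51 without IL-33 replicate 7, where 10 of the 11 values were below 0. Over all genes tested the median was 0.06 and −0.01. Leaving out vehicle replicate 3 as well, a choice made after seeing the data, gave a median of −0.34. Among the 15 tumors other than IL-33 replicate 7, vehicle replicate 3 was the highest for 7 of the 11 fibrillar genes and for 12 of the 39 collagen genes tested (over all genes, 6.56%), and vehicle replicate 7 for 8 of the 39 (8.95%).

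**Figure D2:**
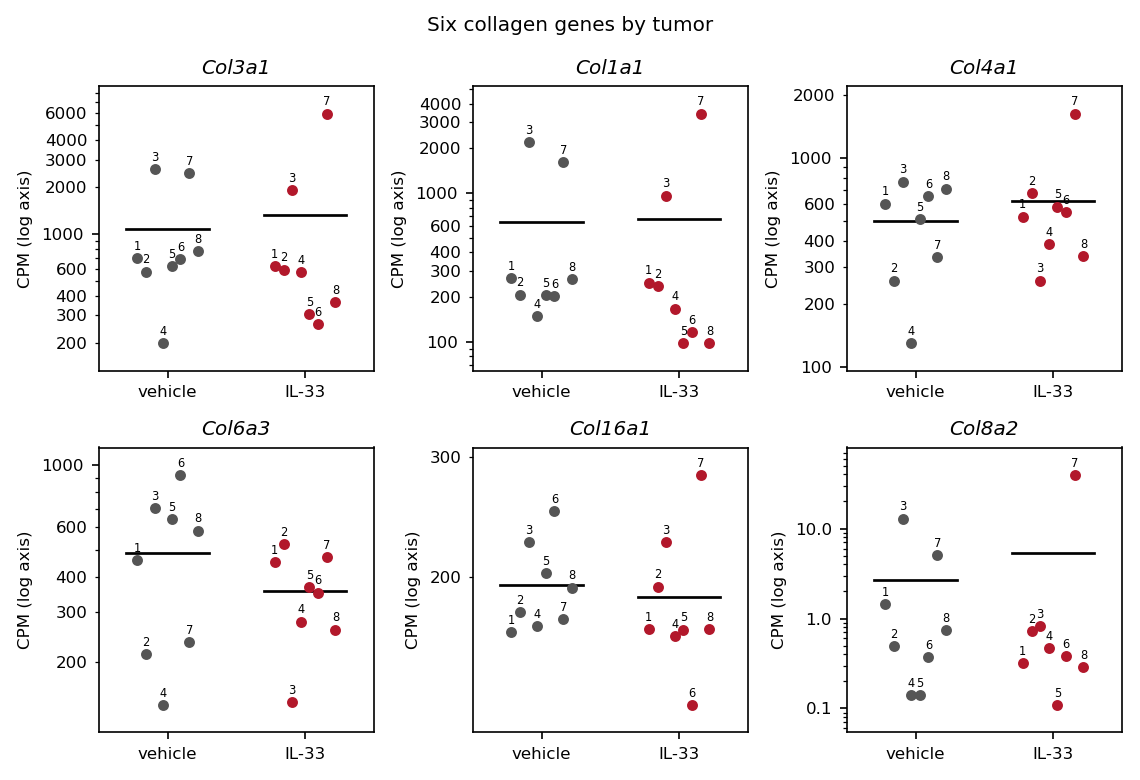
Levels of 6 collagen genes by tumor, in CPM on log axes, with vehicle tumors in gray and IL-33 tumors in red, replicate numbers beside the points and the group mean as a line. For Col1a1 and Col3a1 the tumors IL-33 7, vehicle 3, vehicle 7 and IL-33 3 lie above the others, while Col16a1 stays within 130 to 283 CPM.

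Markers of fibroblasts and of vessels were read in the same tumors. The 9 fibroblast markers summed to 748 CPM in vehicle replicate 3, 657 CPM in vehicle replicate 7 and 571 CPM in IL-33 replicate 3, within the 416 to 787 CPM of the remaining tumors other than IL-33 replicate 7, where they summed to 2805 CPM. Gsn, which many cell types express, made up most of this sum (336 to 675 CPM outside IL-33 replicate 7). Of the 9 markers 2, Mfap5 and Fap, were higher in each of these 3 tumors than in every other tumor except IL-33 replicate 7. Tcf21, a defining marker of some fibroblasts, was at 36.5 CPM in IL-33 replicate 7 and at 0 to 0.820 CPM elsewhere, with no count in vehicle replicates 1, 2, 4, 7 and 8 and IL-33 replicates 1 and 5. The 10 smooth muscle and pericyte markers summed to 315 CPM in vehicle replicate 3, 427 CPM in vehicle replicate 7 and 254 CPM in IL-33 replicate 3, within the 74.5 to 529 CPM of the tumors other than IL-33 replicate 7. Of these 10 markers 3, Acta2, Tagln and Rgs5, were higher in each of the 3 tumors than in every other tumor except IL-33 replicate 7. The remaining markers of both lists were not. The 3 tumors were picked for their collagen levels, and the share of all genes with this pattern was not computed. Whether fibroblasts, smooth muscle cells or pericytes account for the collagen levels was not tested. Because the tumors fell into separate clusters of Col1a1, its correlations pooled over these clusters are not given. A limit of 300 CPM, set after the Col1a1 levels were seen, left 12 tumors of both groups. The p-values within them do not allow for that choice. Within the 12 tumors under 300 CPM of Col1a1, the log2 level of Col1a1 had a Pearson's r of 0.58 (permutation test, p = 0.046, adjusted p = 0.093 over 4 relations) and a Spearman's rho of 0.52 (p = 0.090, adjusted p = 0.120) with the mean log2 level of the fibroblast markers. For the smooth muscle and pericyte markers r was 0.62 (p = 0.026, adjusted p = 0.093) and rho 0.70 (p = 0.015, adjusted p = 0.059). By the same permutation test, r with endothelium was 0.08 (adjusted p = 0.809) and rho 0.22 (adjusted p = 0.499). With mesothelium r was −0.39 (adjusted p = 0.276) and rho −0.55 (adjusted p = 0.120). Without the 2 tumors farthest from the median level of the respective marker list, r was 0.73 for fibroblasts and 0.505 for smooth muscle and pericytes. For Col4a1 and Col6a1 over the 15 tumors other than IL-33 replicate 7, r with the same 2 lists and with endothelium and mesothelium lay between −0.33 and 0.43, and none of these 8 relations had an adjusted p under 0.05 (permutation test, adjusted over 12 relations). The other 4 of the 12 are those of Col1a1 over the same tumors, pooled over its clusters, and 3 of them passed by r (fibroblasts, smooth muscle and pericytes, and endothelium). Of these 3, endothelium did not pass by rho (permutation test, adjusted p = 0.107).

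Among the 15 tumors other than IL-33 replicate 7, the median spread over all genes of a class was narrower for basement membrane than for fibrillar collagens. The median SD of log2(CPM + 0.5) was 0.58 for basement membrane, 0.75 for fibrillar and 0.52 for other collagens. In that order 5 of 8, 6 of 11 and 8 of 23 genes had a mean of at least 10 CPM. The added 0.5 holds down the SD of genes near 0, so these medians do not rank the classes by the spread of their abundant genes. Col4a1 (ENSMUSG00000031502, chromosome 8 from 11198423 to 11312826) and Col4a2 encode the α1 and α2 chains of the type IV network found in most basement membranes. Col4a1 was at 130, 556 and 769 CPM (lowest, median and highest) in the vehicle group and at 259, 535 and 1628 CPM in the IL-33 treatment group. Col4a2 was at 142, 381 and 521 CPM and at 210, 369 and 1126 CPM. For both genes vehicle replicate 4 was the lowest tumor, IL-33 replicate 7 the highest, and the groups overlapped. The log2 fold change was 0.23 (standard error 0.34, unadjusted p = 0.507) for Col4a1 and 0.24 (standard error 0.29, unadjusted p = 0.421) for Col4a2, and without IL-33 replicate 7 it was −0.05 and −0.03, from edgeR. Vehicle replicate 4 was the lowest tumor for 9 of the 19 collagen genes with a mean of at least 10 CPM (over all genes at that level, 53.5%).

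Col18a1, which carries the endostatin fragment at its end, was at 161, 338 and 418 CPM in the vehicle group and at 110, 312 and 458 CPM among the IL-33 tumors. The groups overlapped, the lowest tumor was IL-33 replicate 3, and the fitted log2 fold change was −0.01 (standard error 0.29). Col15a1, its closest relative, was at 21.6, 39.0 and 81.8 CPM and at 16.4, 36.7 and 405 CPM. For Col15a1 the change of 0.64 on the log2 scale was −0.42 without IL-33 replicate 7, the 1 IL-33 tumor above the highest vehicle tumor. Col4a5 was at 0.990, 9.61 and 15.1 CPM in the vehicle group and at 6.63, 7.42 and 81.1 CPM in the IL-33 treatment group, with log2 fold changes of 0.83 and, without that tumor, −0.13.

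Col4a3, Col4a4 and Col4a6 encode chains that are restricted to specialized basement membranes such as those of the kidney glomerulus, and, for Col4a6, of smooth muscle. They were nearly absent outside IL-33 replicate 7. Col4a4 was at 0.0617 to 0.296 CPM in the vehicle group (22 counts in all), at 18.9 CPM in IL-33 replicate 7 (332 counts) and at 0 to 0.545 CPM in the other IL-33 tumors (31 counts). Col4a6 had 39 counts over the vehicle tumors, 801 in IL-33 replicate 7 and 26 over the other 7 IL-33 tumors, and Col4a3, which shares its start region with Col4a4, had 12, 123 and 4. With all tumors Col4a4 (log2 fold change 3.79, standard error 1.198) and Col4a6 (4.07, standard error 1.46) had an unadjusted p of 0.006 and 0.013 and an adjusted p of 0.418 in edgeR. When IL-33 replicate 7 was left out they were at 0.63 (unadjusted p = 0.313) and −0.45 (unadjusted p = 0.566). Over the class the median log2 fold change was 0.73 with all tumors, −0.09 without IL-33 replicate 7 and −0.22 and 0.02 without vehicle replicate 4 or 3 as well, and 2 of 8 genes had an unadjusted p under 0.05 with all tumors, both higher (9.99% of all genes).

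The remaining collagens include the type VI chains, the fiber-associated types and transmembrane types. Col6a1, Col6a2 and Col6a3 encode the chains of common type VI collagen. Col6a1 (ENSMUSG00000001119, chromosome 10 from 76708792 to 76726168) was at 75.0, 325 and 415 CPM (lowest, median and highest) in the vehicle group and at 63.4, 198 and 1438 CPM in the IL-33 treatment group. Col6a2 was at 36.6, 63.5 and 143 CPM and at 22.8, 65.4 and 1293 CPM. For both the highest tumor was IL-33 replicate 7, for Col6a1 followed by IL-33 replicate 1 (731 CPM), and the groups overlapped. Col6a3 was at 140, 521 and 921 CPM in the vehicle group and at 143, 360 and 523 CPM in the IL-33 treatment group, and here the highest tumor was vehicle replicate 6, with IL-33 replicate 7 at 471 CPM. The log2 fold changes were 0.42 (standard error 0.57) for Col6a1, 1.28 (standard error 0.72) for Col6a2 and −0.50 (standard error 0.34) for Col6a3, and without IL-33 replicate 7 they were −0.11, −0.32 and −0.52, with no unadjusted p under 0.05 in edgeR.

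Col6a4, Col6a5 and Col6a6 lie together on chromosome 9, in a stretch from 105687809 to 106096783, and encode alternative long chains of type VI collagen. Col6a4 was at 0.0707 to 2.18 CPM in the vehicle group (121 counts) and at 0.433 to 0.984 CPM in the IL-33 tumors other than replicate 7 (87 counts), where it was at 478 CPM (8384 counts). Col6a6 was at 61.0 CPM in IL-33 replicate 7 and at most 0.565 CPM elsewhere. Col6a5 was at 44.0 CPM in IL-33 replicate 7 and at 6.68 CPM in vehicle replicate 2, and at most 1.34 CPM in the others. Outside IL-33 replicate 7 the groups overlapped for all 3. Col6a4 had the largest fitted change of the 42 genes with all tumors (log2 fold change 5.96, standard error 1.68, unadjusted p = 0.002, adjusted p = 0.418 in edgeR), and it was −0.24 without that tumor (unadjusted p = 0.591).

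The genes with an unadjusted p under 0.05 in the higher direction numbered 8 of 42 with all tumors, 2 of the basement membrane class (Col4a4, Col4a6) and 6 others (Col6a4, Col6a6, Col9a2, Col22a1, Col25a1 and Col26a1), beside 9.99% of all genes. None was lower (over all genes, 1.17%), and without IL-33 replicate 7 none was higher (1.83%). DESeq2 had 0 higher (2.52%) and 0 lower (1.59%) with all tumors. It was run at its default, which replaces outlying counts in groups of this size. Its fit with all tumors therefore need not hold the high counts of IL-33 replicate 7. Col9a2, a chain of cartilage collagen, had 6 counts over the vehicle tumors, 273 in IL-33 replicate 7 and 2 in the other IL-33 tumors. Col22a1 had 4, 93 and 5 counts, Col25a1 had 2, 22 and 3, and Col26a1 had 9, 136 and 5. Counts of this size outside 1 tumor give no measure of a change, and Col9a2, Col22a1 and Col25a1 fell below the minimum of 10 counts without it.

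The genes with an unadjusted p under 0.05 without IL-33 replicate 7 were Col8a2 and Col12a1, both lower (over all genes tested, 2.29%). By DESeq2 0 were higher (1.81%) and 5 lower (2.48%), Col1a1, Col1a2 and Col6a5 besides these. Leaving out vehicle replicate 4 too gave 1 higher, Col10a1 (2.1%), and 2 lower (2.09%). All 3 vehicle counts of Col10a1 were in that replicate, so leaving it out put the vehicle group at 0 counts and the call gives no size of a change. With vehicle replicate 3 left out in its place there were 0 higher (1.67%) and 1 lower, Col23a1 (1.83%), and both fits are from edgeR. Col8a2 (chromosome 4 from 126286793 to 126314330), known from the membrane under the corneal endothelium and from vessel walls, was at 0.141, 0.616 and 12.8 CPM in the vehicle group and at 0.110, 0.379 and 0.820 CPM in the 7 IL-33 tumors, with 39.3 CPM in replicate 7. Vehicle replicates 3 (12.8 CPM), 7 (5.09 CPM) and 1 (1.43 CPM) were above every IL-33 tumor but replicate 7, and the other 5 vehicle tumors overlapped with them. For Col8a2 the log2 fold change was −2.55 without IL-33 replicate 7 (standard error 0.88, unadjusted p = 0.010, adjusted p = 0.964 in edgeR) and 0.74 with all tumors. Without vehicle replicate 3 as well it was −1.39 (unadjusted p = 0.064), and the exact permutation test without IL-33 replicate 7 gave p = 0.210 for Col8a2.

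Col12a1 (chromosome 9 from 79598991 to 79718831), a collagen on the surface of type I fibers, was at 9.44, 33.0 and 210 CPM in the vehicle group (209.5 CPM in replicate 3) and at 14.6, 23.5 and 94.0 CPM in the IL-33 treatment group. Vehicle replicates 3 and 7 (108 CPM) were the highest tumors, above IL-33 replicate 7, and the ranges of the other tumors overlapped. The log2 fold change was −0.91 (standard error 0.54, unadjusted p = 0.112) with all tumors, −1.23 (standard error 0.54, unadjusted p = 0.036, adjusted p = 0.964) without IL-33 replicate 7 and −0.59 (unadjusted p = 0.171) without vehicle replicate 3 as well, from edgeR, and the exact permutation test without IL-33 replicate 7 gave p = 0.303. Col14a1, its relative on the fiber surface, was at 46.8 CPM in vehicle replicate 3, 55.2 CPM in vehicle replicate 7, 25.1 CPM in IL-33 replicate 3 and 126 CPM in IL-33 replicate 7, and at 1.15 to 12.8 CPM in the other tumors.

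Col16a1, another fiber-associated collagen, was the steadiest of the collagen genes at 10 CPM or more, with 2.17-fold between its highest and lowest tumor. It was at 166, 186 and 250 CPM in the vehicle group and at 130, 168 and 283 CPM in the IL-33 treatment group, and the change was −0.18 (standard error 0.14, unadjusted p = 0.226). Col8a1 was at 5.38 to 61.7 CPM in the vehicle group and at 17.7 to 46.1 CPM in the IL-33 tumors other than replicate 7 (46.05 CPM in replicate 4), and it was lower in IL-33 replicate 7, at 13.0 CPM. Col10a1, the collagen of growth plate cartilage, had 3 counts over the vehicle tumors, all in replicate 4, and 11 over the IL-33 tumors. Over the 23 other collagens the median log2 fold change was 0.99 with all tumors and −0.35 without IL-33 replicate 7.

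**Figure D3:**
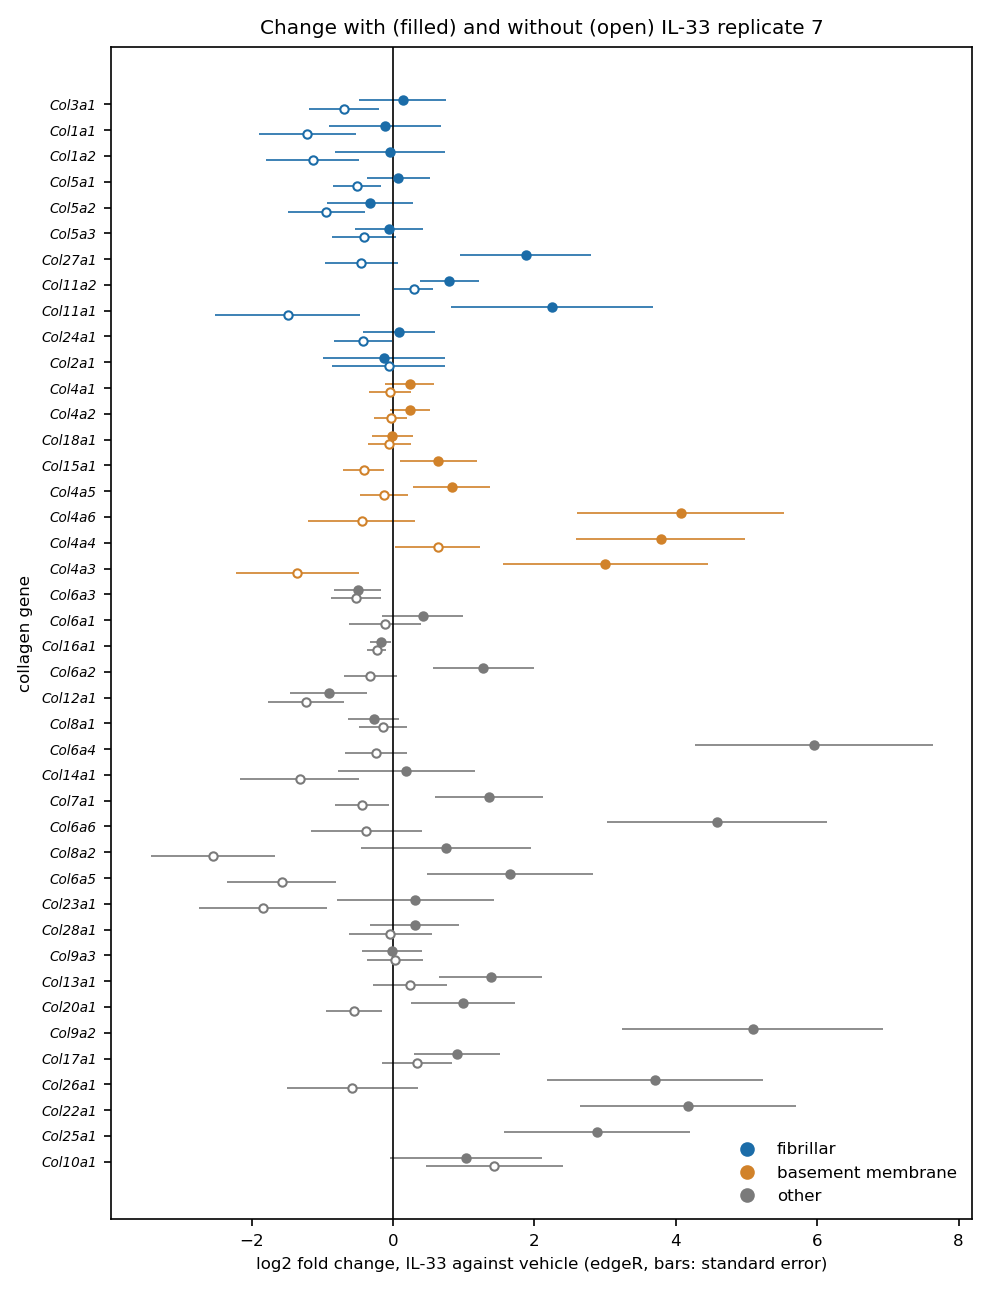
Log2 fold change of each collagen gene, IL-33 against vehicle, from edgeR with its standard error (bars), with all 16 tumors (filled points) and without IL-33 replicate 7 (open points), colored by class. Col6a4, Col9a2, Col6a6, Col22a1 and Col4a6 lie above 4 with all tumors, and no gene lies above 1.5 without that tumor.

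The classes were also set against each other within each tumor, which does not depend on the total count. Fibrillar genes held 27.7 to 76.2% of the collagen counts of a vehicle tumor (median 35.9%) and 21.0 to 75.0% in the IL-33 treatment group (median 31.5%; without replicate 7, 30.7%). The share was 66.7% in vehicle replicate 3, 76.2% in vehicle replicate 7, 75.0% in IL-33 replicate 3 and 61.5% in IL-33 replicate 7, and between 21.0 and 47.0% in the other tumors. Basement membrane genes held 11.001 to 36.8% in the vehicle group and 12.02 to 51.4% in the IL-33 treatment group, with the highest shares in IL-33 replicates 6 (51.4%) and 5 (47.3%). In sum, the collagen genes took 0.147 to 1.07% of all counts of a vehicle tumor and 0.216 to 2.14% of an IL-33 tumor (0.216 to 0.538% without replicate 7). The groups overlapped in each of these shares.

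**Figure D4:**
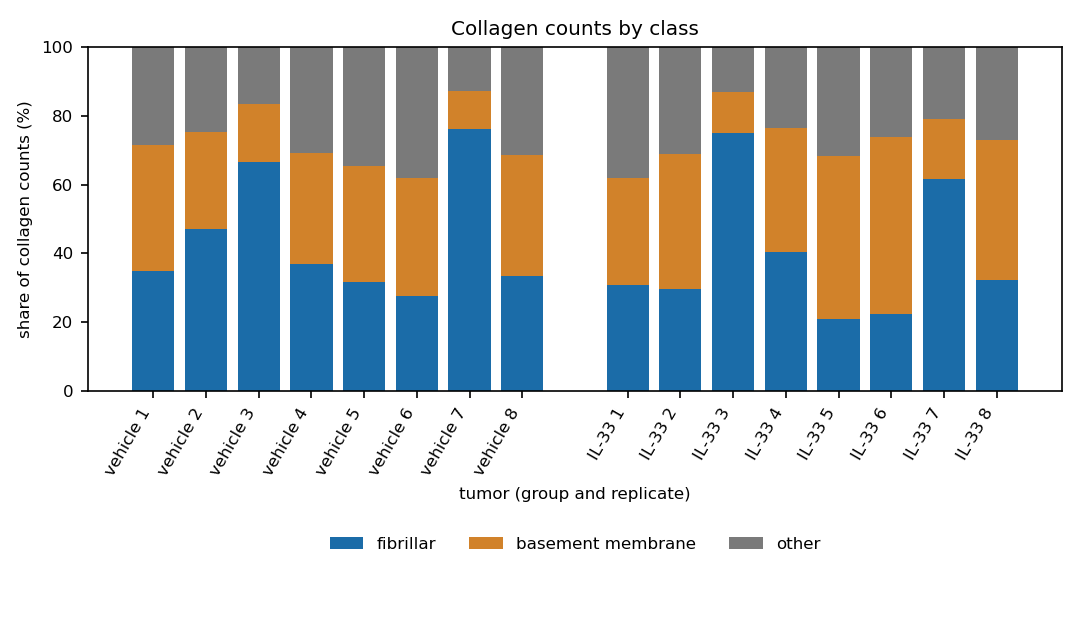
Share of the collagen counts of each tumor, in percent, that fell on fibrillar, basement membrane and other collagen genes (stacked bars, adding up to 100). The fibrillar share is 61.5 to 76.2% in vehicle replicates 3 and 7 and IL-33 replicates 3 and 7 and 21.0 to 47.0% in the other tumors.

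Chains that assemble into 1 molecule were compared as ratios of CPM within a tumor, for 5 pairs. CPM are not divided by exon length (11963 bases for Col6a3 and 4380 for Col6a1, for example). A ratio therefore compares tumors and does not give the proportion of the 2 chains. Col1a1 over Col1a2, which join in type I collagen, was 1.12, 1.36 and 1.63 in the vehicle group (lowest, median and highest) and 1.04, 1.31 and 1.44 in the IL-33 treatment group, although the level of Col1a1 itself spanned 35.0-fold. IL-33 replicate 7, at 1.30, was within the range of the others. The log2 ratio differed by −0.09 between the groups (two-sided exact permutation test, p = 0.320, adjusted p = 0.782 over 5 pairs). Col4a1 over Col4a2 was 0.914, 1.46 and 1.64 in the vehicle group and 1.23, 1.42 and 1.504 in the IL-33 treatment group, with the low value in vehicle replicate 4. These 2 genes overlap at their starts, and the use of strand in the counting is not given in the sources used here. The group difference was 0.04 on the log2 scale (exact permutation test, p = 0.782).

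The other pairs varied more from tumor to tumor. Col5a1 over Col5a2 was 0.935 to 3.22 in the vehicle group and 1.19 to 2.89 in the IL-33 treatment group (log2 difference 0.09, exact permutation test, p = 0.753). Col6a1 over Col6a2 was 1.26, 3.91 and 8.23 in the vehicle group and 1.11, 3.19 and 7.93 in the IL-33 treatment group, lowest in IL-33 replicate 7 (log2 difference −0.16, exact permutation test, p = 0.739). Col6a3 over Col6a1 was 1.30, 1.83 and 2.52 in the vehicle group and 0.327, 1.36 and 4.38 in the IL-33 treatment group, where both the lowest (replicate 7) and the highest (replicate 4) tumor of the series were found (log2 difference −0.30, exact permutation test, p = 0.539). The p-values of the 5 pairs without IL-33 replicate 7 lay between 0.315 and 0.999 (exact permutation test, adjusted p = 0.999 for each).

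**Figure D5:**
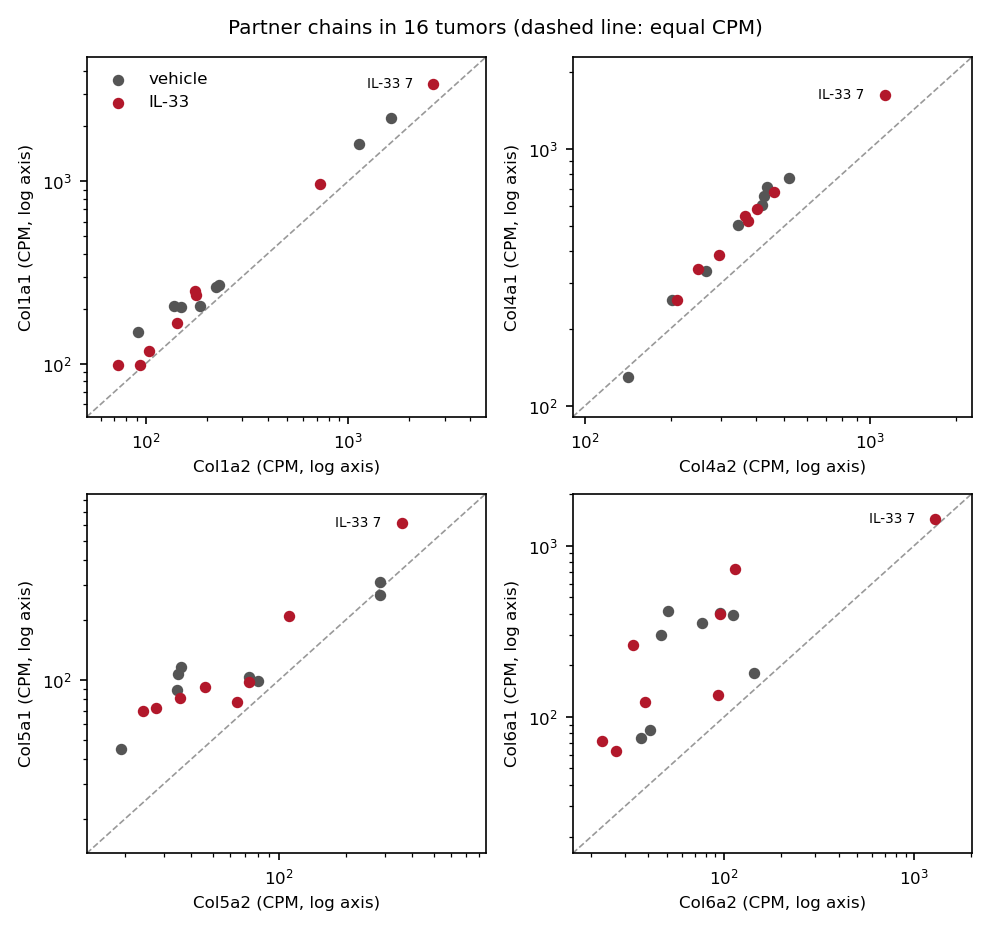
Levels of partner chains in the 16 tumors, in CPM on log axes, with vehicle tumors in gray and IL-33 tumors in red and the line of equal CPM dashed. Col1a1 and Col1a2 lie along the line, with a ratio of 1.04 to 1.63, while Col6a1 over Col6a2 runs from 1.11 to 8.23. CPM are not divided by exon length.

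Genes that process or bind collagen were counted in the same fit. Of 18 genes of collagen modification and folding, 1 was higher and 1 lower at an unadjusted p under 0.05 with all tumors (all genes, 9.99% and 1.17%), while 0 and 1 were when IL-33 replicate 7 was left out (1.83% and 2.29%). The abundant members P4hb, the shared subunit of prolyl 4-hydroxylase, and Serpinh1, the collagen chaperone HSP47, had log2 fold changes of −0.14 and −0.25 (unadjusted p = 0.490 and 0.134), and Ppib, a prolyl isomerase, of −0.19 (unadjusted p = 0.368). P3h4, a partner of lysyl hydroxylase, was at 81.6, 132 and 144 CPM in the vehicle group and at 72.0, 88.5 and 139 CPM in the IL-33 treatment group, and its values overlapped (log2 fold change −0.43, standard error 0.17, unadjusted p = 0.025, adjusted p = 0.418 in edgeR). It was the 1 gene of this list lower in both fits, at −0.35 without IL-33 replicate 7 (unadjusted p = 0.044, adjusted p = 0.964). Colgalt2, the gene higher with all tumors, was at 7.35 CPM in IL-33 replicate 7 and at most 0.400 CPM elsewhere.

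Of the 13 genes of procollagen cleavage and crosslinking, 12 were tested. With all tumors 1 was higher, Tll1, a relative of Bmp1 (1.27, unadjusted p = 0.049, 3.65 CPM in IL-33 replicate 7), and none lower (9.99% and 1.17% of all genes). With IL-33 replicate 7 left out none was higher and 2 were lower (1.83% and 2.29%), Bmp1, which cuts the end of fibrillar procollagens, and Lox, which crosslinks the fibers. Lox was at 20.9, 42.8 and 404 CPM in the vehicle group, highest in replicates 3 (404 CPM) and 7 (138.5 CPM), and at 15.3, 40.9 and 115 CPM among the IL-33 tumors. The log2 fold change of Lox was −1.16 (unadjusted p = 0.059) and, without IL-33 replicate 7, −1.41 (unadjusted p = 0.029, adjusted p = 0.964 in edgeR). For Bmp1 it was −0.04 and −0.38 (unadjusted p = 0.878 and 0.032), with 263 CPM in IL-33 replicate 7 and at most 130 CPM elsewhere. Pcolce, which speeds up that cut, was at 546 CPM at the median of the vehicle group and 475 CPM at that of the IL-33 treatment group (log2 fold change −0.45, unadjusted p = 0.051), and Loxl3, a relative of Lox, had a log2 fold change of −0.10 (unadjusted p = 0.761).

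Among 12 fibril partners, 2 were higher and 1 lower with all tumors (9.99% and 1.17% of all genes), and 1 was higher and 3 lower when IL-33 replicate 7 was left out (1.83% and 2.29%). Thbs1, thrombospondin 1, was at 37.8, 97.5 and 146 CPM in the vehicle group and at 45.8, 164 and 433 CPM in the IL-33 treatment group, with 5 IL-33 tumors above the highest vehicle tumor and the rest overlapping. It was the gene of this list higher in both fits, with log2 fold changes of 0.85 (unadjusted p = 0.013) and 0.62 (unadjusted p = 0.038), adjusted p = 0.418 and 0.964 in edgeR. Thbs2 was lower with all tumors (−0.79, unadjusted p = 0.033) and not under 0.05 without IL-33 replicate 7 (−0.67, unadjusted p = 0.054). Fmod, Bgn and Fbln1 were lower without IL-33 replicate 7, and all 3 were higher in vehicle replicate 3 than in any IL-33 tumor but replicate 7: Bgn, the fiber-binding proteoglycan biglycan, was at 637 CPM in vehicle replicate 3, 478 CPM in vehicle replicate 7 and at most 155 CPM in the 7 IL-33 tumors. Fn1, fibronectin, was the most abundant of the list, at 786 to 6127 CPM in the vehicle group and 1074 to 4962 CPM among the IL-33 tumors (log2 fold change −0.15, unadjusted p = 0.745). Of the 4 tumors with the most Col1a1, Fn1 was at 5044 CPM in vehicle replicate 3 and at 896 to 1212 CPM in vehicle replicate 7 and IL-33 replicates 3 and 7. Sparc, which binds collagen, was at 352 to 1558 CPM over all tumors, highest in IL-33 replicate 7. Tnxb, the other gene higher with all tumors, was at 444 CPM in IL-33 replicate 7 and at most 28.5 CPM elsewhere. Dcn, decorin, was at 1550 CPM in IL-33 replicate 7 and at most 247 CPM elsewhere.

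Of 10 collagen receptors 9 were tested, and with all tumors none had an unadjusted p under 0.05 (9.99% of all genes higher and 1.17% lower). Leaving out IL-33 replicate 7 gave none higher (1.83%) and 1 lower (2.29%), Mrc2, a receptor that takes up collagen fragments (log2 fold change −0.74, unadjusted p = 0.017, adjusted p = 0.964 in edgeR). Itgb1, the β1 integrin shared by the collagen-binding integrins, was at 290, 920 and 1060 CPM in the vehicle group and at 611, 917 and 1043 CPM in the IL-33 treatment group (log2 fold change 0.00, unadjusted p = 0.983), with its low value in vehicle replicate 4. Ddr1 and Ddr2, the discoidin domain receptors, had log2 fold changes of 0.09 and −0.08. The median log2 fold change was −0.12 for modification and folding, 0.06 for cleavage and crosslinking, 0.06 for fibril partners and 0.20 for receptors with all tumors. In the same order it was −0.15, −0.23, −0.81 and −0.01 when IL-33 replicate 7 was left out.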

How the data were processed

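RNA from 8 vehicle and 8 IL-33 tumors was sequenced by a company after poly(A) selection. The authors deposited raw counts of reads per gene for each tumor, without normalization. The submitters' processing notes name HISAT2, featureCounts and mm10. Their versions, the annotation release and the use of strand are not given in the sources used here. Groups and replicate numbers were taken from the labels, and age, cell number, dose and interval from the study's methods. The collagen genes and all lists were chosen with earlier results of these data known.

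Symbols, coordinates and exon lengths came from GENCODE M21 (GRCm38), which named 22255 of 22298 genes, and the unnamed genes held 0.00434% of the counts. CPM are counts over the total count of a tumor. Genes needed a sum of 10 counts in the 16 libraries, which left 16817 for edgeR 4.0.16 (R 4.3.3, TMM, glmQLFit, glmQLFTest, Benjamini-Hochberg adjustment over all genes tested). Without IL-33 replicate 7, 15803 genes were left. Values of log2(CPM + 0.5) were compared gene by gene over all 12870 ways to assign the tumors (exact permutation test, two-sided, smallest possible p 0.000155). The named collagens were the 5 of each class with the highest mean CPM, every member with an unadjusted p under 0.05 in the fit with all tumors or without IL-33 replicate 7, and both chains of each ratio. From each list of other genes the 3 with the highest mean CPM and up to 6 with such a p were named, and further members singled out in the text (Col11a1, Col11a2, Col27a1, Col4a3, Col6a5, Col8a1, Col10a1, Col14a1) were chosen after their values were seen. The alternatives were DESeq2 1.42.0, upper-quartile normalization, limma 3.58.1 voom with quality weights, robust quasi-likelihood, no filter, filterByExpr, other pseudocounts, TMM-scaled CPM, the replicate number as a block, and each tumor left out in turn. DESeq2 kept its default replacement of outlying counts. The models were tested on simulated data. Any 2 tumors differed by more than sampling noise (the smallest chi-square per degree of freedom was 9.14).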

Additional observations from a re-analysis of the deposited data

Results flagged for a closer look

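Each collagen gene with at least 10 counts and each chain ratio was searched in both groups for a tumor standing far from the other 7 on the log2(CPM + 0.5) scale, by Dixon's criterion. Over 94 such groups 28 tumors were found. Chance gives about 1 in 20 groups for normal, independent values. That rate does not hold here, because many groups hold few counts and most flags share 1 tumor. Of the 28, 22 were high values in IL-33 replicate 7, which also held the uterus, ovary and smooth muscle markers given above, whose part was not tested. Among the basement membrane collagens these were Col15a1 (405 CPM), Col4a2 (1126 CPM), Col4a3 (7.01 CPM), Col4a4 (18.9 CPM), Col4a5 (81.1 CPM) and Col4a6 (45.6 CPM). Among the fibrillar collagens they were Col11a1 (24.6 CPM), Col11a2 (9.52 CPM) and Col27a1 (44.7 CPM), the less abundant members of the class. Among the others they were Col6a2 (1293 CPM), Col6a4 (478 CPM), Col6a5 (44.0 CPM), Col6a6 (61.0 CPM), Col7a1 (67.9 CPM), Col8a2 (39.3 CPM), Col9a2 (15.6 CPM), Col13a1 (10.1 CPM), Col20a1 (8.72 CPM), Col22a1 (5.30 CPM), Col23a1 (18.3 CPM), Col25a1 (1.25 CPM) and Col26a1 (7.75 CPM).

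The 6 others lay in vehicle tumors. Col6a5 was at 6.68 CPM in vehicle replicate 2, and Col11a1 was at 2.96 CPM in vehicle replicate 3. The level was 0.247 CPM for Col9a2 in vehicle replicate 3, 0.343 CPM for Col4a3 in vehicle replicate 7 and 0.212 CPM for Col10a1 in vehicle replicate 4, each from a few counts. The ratio of Col4a1 to Col4a2 was low in vehicle replicate 4, at 0.914.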

How the results depend on the processing

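The count of collagen genes higher at an unadjusted p under 0.05 was 8 with all tumors, 0 with DESeq2, 1 with filterByExpr and 2 with limma voom. It ran from 0 to 11 over the fits that omit 1 tumor, with the 0 in the fit that omits IL-33 replicate 7 and 7 or more in the others. Beyond IL-33 replicate 7, omitting vehicle replicate 4 gave 1 (Col10a1, which that leaves with 0 vehicle counts), omitting vehicle replicate 3 gave 0, and DESeq2 gave 0. The count lower was 0 with all tumors, 1 with limma voom and 0 to 2 over the fits that omit 1 tumor, with the 2 in the fit that omits IL-33 replicate 7. Beyond that tumor it was 2 without vehicle replicate 4, 1 without vehicle replicate 3 and 5 with DESeq2. Upper-quartile normalization, robust quasi-likelihood and no filter left the counts at 8 and 0.

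The replicate numbers did not pair the tumors: the correlation of same-numbered deviations lay between −0.32 and 0.35, and only 1 vehicle and 1 IL-33 tumor correlated best with its own number. With the replicate block 0 genes were higher and 0 lower.

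The median log2 fold change of the other collagens, 0.99 with all tumors, was −0.31 with DESeq2, −0.22 with limma voom, −0.35 to 1.13 over the fits that omit 1 tumor, −0.37 and −0.33 when vehicle replicate 4 or 3 was omitted with IL-33 replicate 7, and −0.36 with DESeq2 when that tumor was omitted. For the basement membrane collagens the median of 0.73 was −0.22 when vehicle replicate 4 was omitted with IL-33 replicate 7, and −0.09 to 0.89 over the fits that omit 1 tumor. For the fibrillar collagens the range was −0.51 to 0.47.

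Single genes changed sign as follows, and the cause was not tested. The DESeq2 fits replaced outlying counts by default, and the part of this in the changes was not tested. The value is the log2 fold change. It was −0.40 for Col15a1, −0.77 for Col26a1, −0.68 for Col3a1, −0.12 for Col4a5, −0.46 for Col4a6, −0.51 for Col5a1, −0.31 for Col6a2, −0.27 for Col6a4, −0.39 for Col6a6, −1.27 for Col8a2 and −1.33 for Col9a2 with DESeq2. It was −0.43 for Col15a1, −0.096 for Col26a1, −0.74 for Col3a1, −0.12 for Col4a1, −0.070 for Col4a2, −0.34 for Col4a5, −0.85 for Col4a6, −0.53 for Col5a1, −0.42 for Col6a1, −0.29 for Col6a2, −0.038 for Col6a4, −1.001 for Col6a6, −1.13 for Col8a2 and −0.27 for Col9a2 with limma voom. It was −0.043 for Col15a1, −0.26 for Col3a1, −0.015 for Col4a6, −0.13 for Col5a1, −0.16 for Col6a1 and −0.43 for Col8a2 with the replicate block. It was −0.43 for Col15a1, −0.60 for Col26a1, −0.71 for Col3a1, −0.050 for Col4a1, −0.038 for Col4a2, −0.13 for Col4a5, −0.45 for Col4a6, −0.52 for Col5a1, −0.11 for Col6a1, −0.33 for Col6a2, −0.27 for Col6a4, −0.39 for Col6a6 and −2.56 for Col8a2 with DESeq2 when IL-33 replicate 7 was left out. It was −0.46 for Col15a1, −0.70 for Col26a1, −0.83 for Col3a1, −0.16 for Col4a1, −0.11 for Col4a2, −0.28 for Col4a5, −0.60 for Col4a6, −0.61 for Col5a1, −0.23 for Col6a1, −0.37 for Col6a2, −0.39 for Col6a4, −0.47 for Col6a6 and −2.71 for Col8a2 when vehicle replicate 4 was left out with IL-33 replicate 7. It was −0.29 for Col15a1, 0.012 for Col18a1, −0.76 for Col26a1, −0.38 for Col3a1, −0.40 for Col4a6, −0.25 for Col5a1, −0.029 for Col6a1, −0.23 for Col6a2, −0.21 for Col6a4, −0.54 for Col6a6 and −1.39 for Col8a2 when vehicle replicate 3 was left out with IL-33 replicate 7, a setting chosen after seeing the data. It was 0.0025 for Col18a1 and 0.031 for Col1a2 with upper-quartile normalization. It was 0.0052 for Col18a1 and 0.028 for Col1a2 with filterByExpr. Over the fits that omit 1 tumor, or IL-33 replicate 7 and vehicle replicate 4, it was −0.46 to 0.80 for Col15a1, −0.14 to 0.12 for Col18a1, −1.33 to 0.52 for Col1a1, −1.26 to 0.59 for Col1a2, −0.70 to 4.36 for Col26a1, −0.83 to 0.47 for Col3a1, −0.16 to 0.35 for Col4a1, −0.11 to 0.34 for Col4a2, −0.28 to 1.00 for Col4a5, −0.60 to 4.36 for Col4a6, −0.61 to 0.34 for Col5a1, −1.08 to 0.094 for Col5a2, −0.23 to 0.58 for Col6a1, −0.37 to 1.46 for Col6a2, −0.39 to 6.41 for Col6a4, −0.47 to 4.85 for Col6a6 and −2.71 to 1.91 for Col8a2. The difference of mean log2(CPM + 0.5) was −0.016 for Col15a1, −0.055 for Col18a1 and −0.087 for Col6a1 with TMM-scaled CPM, and −0.38 for Col15a1, −0.057 for Col18a1, −0.034 for Col26a1, −0.14 for Col4a6, −0.37 for Col6a1, −0.42 for Col6a2, −0.020 for Col6a4, −0.13 for Col6a6 and −0.054 for Col9a2 when IL-33 replicate 7 was omitted. The log2 difference of the chain ratios was −0.041 to 0.21 for Col5a1/Col5a2, −0.045 to 0.075 for Col4a1/Col4a2 and −0.36 to 0.054 for Col6a1/Col6a2 over the sets that omit 1 tumor, and 0.061 for Col6a1/Col6a2 and 0.00099 for Col6a3/Col6a1 when IL-33 replicate 7 and vehicle replicate 3 were omitted. None of these chain ratios had a permutation p under 0.05.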
